A study of Homo sapiens with 60 samples.

Results

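The transcriptional response to a rise in dose of a hot-water extract of Cimicifugae Rhizoma (cimicifuga), the dried rhizome of black cohosh relatives used in East Asian herbal medicine, was examined in HT29 cells. The comparison set 3 libraries at the high dose against 3 at the low dose, 6 of the 60 libraries analysed from the series, over all 16325 genes that passed a filter on low counts. HT29 is an established human colorectal adenocarcinoma line. The libraries were taken 24 h after the extract was added at 500 µg/mL (high) or 20 µg/mL (low), and 3 libraries at 100 µg/mL (medium) and 3 of vehicle served as reference levels. For the vehicle libraries the sample labels give 0.1% DMSO and the design text 2%, and the labels give no DMSO content for the extracts. The sample titles place vehicle and all extracts in batch B. The first part of the sample code, here called the library set code, differs between vehicle and cimicifuga, and the labels do not say what it marks. Vehicle levels are therefore set beside those of the extract with no test. Extracts of Citri Unshius Pericarpium (citrus peel) at the same 3 doses bear the same library set code and were fitted together with cimicifuga in 18 libraries. Nothing in the labels says that replicates came from different cultures. The p-values therefore rest on variation among libraries that may be only technical. The design text also allows a top dose under 500 µg/mL for toxic extracts and does not name them.

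Cells meet reactive plant compounds with several linked programmes. NRF2, a transcription factor held back by KEAP1 until reactive molecules modify that sensor, turns on genes that make glutathione, supply NADPH, reduce quinones and aldehydes, degrade heme and store iron. The aryl hydrocarbon receptor, a sensor of flat aromatic molecules, turns on cytochromes P450 of the first family and some of the same enzymes. The colon epithelium uses both, since it faces food and plant compounds directly. A separate feature of gene expression is length: a polymerase must travel the whole gene before a transcript is complete, so long genes take hours where short ones take minutes.

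Sequence could be shown for a few members of the response. NRF2 binds antioxidant response elements, whose core was searched for as TGACNNNGC on both strands in RefSeq promoters (GRCh38.p14, 250 bases before to 50 after the start). Of 36 list members that rose by at least 0.3 on the log2 scale, 28 had a promoter sequence and 5 held the core. It was present in 15.2% of the 11122 tested genes with a promoter sequence and in 13.6% of all 27303 promoters. It was also in 18.2% of the genes that rose and 15.5% of those that fell, but only 76.1% of the genes that rose had a sequence, so nothing is read from these shares. In 3 of the 5, 1 core lies wholly before the start and outside annotated exons, with no exon just before it. For GCLM the last base of the core is excepted. These 3 are shown with that core in capitals, each 5′ to 3′ on the strand of its gene. The stretches lie at chr1:93909456-93909504 (minus strand, the core read on the opposite strand), chr12:104215640-104215728 (plus strand) and chr6:83431140-83431228 (minus strand). TXNRD1 holds a second core at bases -8 to 1 from the start and ME1 at 12 to 20, both outside the stretches. The GCLM and TXNRD1 genes serve glutathione and thioredoxin, and ME1 supplies NADPH.
GCLM: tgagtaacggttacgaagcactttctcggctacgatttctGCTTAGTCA
TXNRD1: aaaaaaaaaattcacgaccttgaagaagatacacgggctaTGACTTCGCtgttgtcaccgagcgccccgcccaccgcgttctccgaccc
ME1: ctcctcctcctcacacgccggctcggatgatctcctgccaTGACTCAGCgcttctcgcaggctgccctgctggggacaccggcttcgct

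From low to high dose, 209 genes rose and 373 fell (edgeR quasi-likelihood test with Benjamini-Hochberg adjustment, threshold 0.05), which is 1.28% and 2.28% of the genes tested, 3.57% in all. Most changes were small. The median log2 fold change was 0.27 among genes that rose and -0.23 among those that fell, and 16 rose and 8 fell by at least 1 on the log2 scale. The rises were led by detoxification and antioxidant genes, and the falls by genes of very long genomic span. All 3 high-dose libraries lay above all 3 low-dose libraries for 204 of the 209 genes that rose, and below them for 361 of the 373 that fell, where 8.54% and 8.34% of all genes were separated in those directions. The genes were called from these same libraries, so their separation is not separate evidence. The count fell by over 1.5 times without high-dose library 2 (356 genes) or low-dose library 2 (312), with the 9 cimicifuga libraries alone (372), with the compared groups alone (134) and with all 57 libraries of replicated groups (149). Without the replicate number as a block it was 398.

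The libraries were of ample depth. Total counts were 27.59 to 32.26 M at the high dose, 22.37 to 30.74 M at the medium and 14.92 to 32.34 M at the low. Replicate 3 of each dose stood apart from replicates 1 and 2: RN7SL2, an RNA of the signal recognition particle, lay at 4.27, 4.50 and 77.7 CPM at the high dose and at 3.95, 3.59 and 70.4 CPM at the low (CPM are counts per M on scaled totals). The fit carries the replicate number as a term, and without replicate 3 of every group 501 genes were called, 318 of them among the 582. Across genes, deviations of same-numbered high-dose and low-dose libraries correlated at -0.01, 0.14 and 0.05, and those of unlike numbers at -0.21 to 0.15. The replicate term thus showed no clear pairing in this comparison. Markers of colon epithelium such as EPCAM and CDX2 were present, all 12 above 1 CPM on average and together 11300 to 12500 CPM per library. Summed markers of fibroblasts (8 genes) reached 2.74 CPM, of immune cells (10) 13.4 CPM and of endothelium (6) 3.27 CPM. Hepatocyte markers (7) summed to 340 to 377 CPM, with 1 of them above 1 CPM on average. COL1A2, PDGFRA, CD3D, MS4A1, FCGR3A, CDH5 and ALB were listed at 0 in each of the 9 libraries.

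Enzymes that reduce carbonyls and quinones or oxidise aldehydes rose most uniformly. Of 12 tested members of this list 11 rose and 0 fell, with a median log2 fold change of 0.46 beside 0.00 over all genes, and the count was 11 without the block too. For this and the following lists the shares to set beside the counts are 1.28% higher and 2.28% lower over all tested genes. The lists were chosen with earlier results of these data known, so their counts are a description. The aldehyde dehydrogenase ALDH3A1 (ENSG00000108602, GRCh38 chromosome 17, 19737984 to 19748943, minus strand) lay at 47.0, 50.2 and 52.4 CPM at the high dose and at 20.2, 23.0 and 23.0 CPM at the low. It rose by 1.18 ± 0.05 (log2, ± SE, edgeR adjusted p = 1.94e-11), and the low-dose libraries overlapped the 21.3 to 23.7 CPM of vehicle. AKR1C2 (ENSG00000151632, chromosome 10, 4987400 to 5018031, minus strand), a ketosteroid reductase, lay at 22.3, 22.4 and 23.8 CPM against 9.02, 9.90 and 9.26 CPM, a rise of 1.27 ± 0.07 (edgeR adjusted p = 5.77e-10). High-dose levels of both genes were more than those of every other library of the extract. Related aldo-keto reductases followed, AKR1B10 with 0.92 ± 0.04, AKR1C1 with 1.11 ± 0.09 and AKR1C3 with 0.98 ± 0.08. The AKR1C genes are near copies of each other, so their reads can be shared between them and the single values are uncertain.

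The other members of this list rose less. NQO1, the quinone reductase, went from 496, 503 and 497 CPM to 717, 715 and 740 CPM (0.53 ± 0.03, edgeR adjusted p = 1.4e-09). The fatty aldehyde dehydrogenase ALDH3A2 rose by 0.38 ± 0.03, the epoxide hydrolase EPHX1 by 0.36 ± 0.04 and UGDH, which makes the glucuronic acid donor, by 0.35 ± 0.04. PTGR1 (0.28 ± 0.04), a reductase of prostaglandins and unsaturated aldehydes, and the second quinone reductase NQO2 (0.16 ± 0.03) were the smallest rises. The carbonyl reductase CBR1 did not pass (0.16 ± 0.07, edgeR adjusted p = 0.268), but passed without low-dose library 1 (0.24, edgeR adjusted p = 0.0445) and lay at 0.05 without low-dose library 3. Of the calls here, that of NQO2 was lost in 7 of 16 alternative fits, with adjusted p of up to 0.346 in edgeR.

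**Figure D1:**
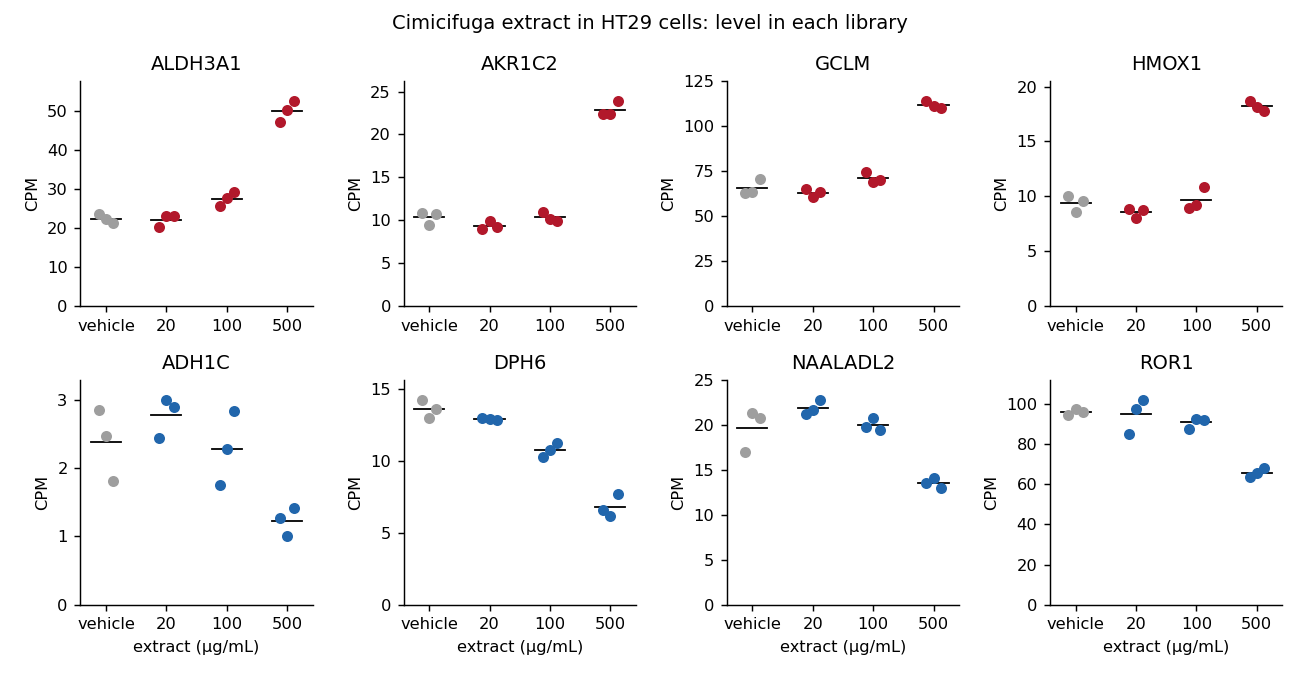
Level of 8 genes in each library (points, CPM on a linear axis from 0) of vehicle (grey) and of cimicifuga at 20, 100 and 500 µg/mL, with lines at the means of 3 libraries. In each panel the 3 libraries at 500 µg/mL are apart from the 3 at 20 µg/mL, above them in the upper row (ALDH3A1 47.0 to 52.4 against 20.2 to 23.0 CPM) and below them in the lower row (DPH6 6.19 to 7.68 against 12.8 to 13.0 CPM). All 8 were taken from the genes called between these doses, so the separation is not separate evidence.

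Of 13 tested glutathione genes 7 rose and 0 fell, with a median of 0.23. GCLM, the modifier subunit of glutamate-cysteine ligase (ENSG00000023909, chromosome 1, 93885205 to 93909456, minus strand), lay at 114, 111 and 110 CPM against 65.2, 60.8 and 63.5 CPM, a rise of 0.82 ± 0.04 (edgeR adjusted p = 1.02e-10). SLC7A11, which imports the cystine that limits glutathione synthesis, went from 144, 147 and 145 CPM to between 220 and 255 CPM (0.72 ± 0.04, edgeR adjusted p = 2.05e-10). For both genes the medium dose lay nearer to the low than to the high dose, at 68.8 to 74.3 CPM for GCLM and 156 to 168 CPM for SLC7A11. The catalytic subunit GCLC rose by 0.52 ± 0.04, CHAC1, which degrades glutathione, by 0.70 ± 0.12, the gut peroxidase GPX2 by 0.30 ± 0.03, glutathione reductase GSR by 0.23 ± 0.04 and the membrane transferase MGST1 by 0.19 ± 0.04. The abundant transferase GSTP1 (0.10 ± 0.04) and the lipid peroxidase GPX4 (-0.02 ± 0.05) did not pass (edgeR adjusted p = 0.288 and 0.91). Among these calls MGST1, GSR and CHAC1 were lost in some alternative fits, with edgeR adjusted p of up to 0.864, 0.091 and 0.0533.

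Of 8 thioredoxin genes 2 rose. TXNRD1, the reductase, went from 356 to 366 CPM at the low dose to 482 to 509 CPM at the high (0.45 ± 0.03, edgeR adjusted p = 9.91e-08), and SRXN1, which repairs peroxiredoxins, rose by 0.30 ± 0.04. Thioredoxin itself, TXN, did not pass (0.19 ± 0.07, edgeR adjusted p = 0.217), nor did PRDX1 (0.12 ± 0.04, 0.1), although both passed without the filter on low counts (edgeR adjusted p = 5.5e-05 and 0.0241) and PRDX1 passed in DESeq2. Of 7 NADPH genes 4 rose, among them malic enzyme ME1 (0.41 ± 0.04), transketolase TKT (0.32 ± 0.04) and PGD (0.14 ± 0.03). The rise of PGD was lost without high-dose library 2 or 3 or low-dose library 2 or 3 (edgeR adjusted p of up to 0.147) and without the block (0.0561). Among other fits it was lost with the compared groups alone (edgeR adjusted p = 0.378) and with 57 libraries (0.473).

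Among 10 genes that regulate NRF2 or report its activity, 4 rose. SQSTM1, the autophagy receptor that binds KEAP1, lay at 509, 493 and 514 CPM against 368, 382 and 379 CPM, a rise of 0.42 ± 0.03 (edgeR adjusted p = 9.91e-08). OSGIN1, an oxidative stress response gene, rose by 0.75 ± 0.08 and the small Maf partner MAFG by 0.26 ± 0.04. The mRNA of NRF2 itself, NFE2L2, lay at 123, 120 and 122 CPM against 123, 123 and 123 CPM and did not pass (-0.02 ± 0.03, edgeR adjusted p = 0.833). KEAP1 rose by 0.19 ± 0.04, a call lost without high-dose library 1 or low-dose library 3 (edgeR adjusted p of up to 0.0903). Among other fits it was lost with the compared groups alone (edgeR adjusted p = 0.192) and with 57 libraries (0.576). The call of MAFG was lost with the compared groups alone, with 57 libraries and without replicate 2 of every group (up to 0.127 in edgeR).

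Of 12 tested genes of heme and iron handling 6 rose and 1 fell, with a median of 0.20. HMOX1, which opens the heme ring and releases its iron (ENSG00000100292, chromosome 22, 35380361 to 35394214, plus strand), lay at 18.6, 18.1 and 17.8 CPM against 8.82, 8.07 and 8.73 CPM (1.10 ± 0.07, edgeR adjusted p = 5.6e-09). The ferritin chains, which store that iron, were among the most abundant transcripts. FTL went from 2283, 2342 and 2594 CPM to 3506, 3510 and 3544 CPM (0.55 ± 0.04) and FTH1 from 3804, 3773 and 3913 CPM to 4883, 5374 and 5720 CPM (0.47 ± 0.04, edgeR adjusted p = 1.13e-07 and 1.66e-06). ABCB6, a porphyrin transporter (0.50 ± 0.05), FECH, which inserts iron to form heme (0.51 ± 0.05), and the heme transporter SLC48A1 (0.28 ± 0.04) also rose. The iron exporter SLC40A1 fell by 0.19 ± 0.04, which was lost without high-dose library 1 or 2 or low-dose library 2 (edgeR adjusted p of up to 0.143), and the transferrin receptor TFRC did not pass (0.04 ± 0.03, edgeR adjusted p = 0.649). SLC40A1 was also lost with 57 libraries (edgeR adjusted p = 0.209) and without replicate 2 of every group (0.369). SLC48A1 was lost with the compared groups alone (edgeR adjusted p = 0.0842) and without replicate 2 of every group (0.0933).

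Aryl hydrocarbon receptor targets rose in 7 of 12 tested members, with a median of 0.40, and ALDH3A1 and NQO1 belong to this list as well. CYP1A1, the classical target, was scarce, at 1.74, 2.57 and 2.91 CPM against 0.790, 0.439 and 0.528 CPM, and rose by 2.13 ± 0.30 (edgeR adjusted p = 0.000192). CYP1B1 went from 52.1, 51.1 and 53.6 CPM to 81.7, 82.5 and 80.8 CPM (0.64 ± 0.04, edgeR adjusted p = 1.4e-09), and the groups were far apart. The glucuronosyltransferase UGT1A6 rose by 0.63 ± 0.05, the retinaldehyde dehydrogenase ALDH1A3 by 0.50 ± 0.05 and TIPARP, which restrains the receptor, by 0.30 ± 0.04. The mRNA of the receptor, AHR, lay at 117 to 121 CPM against 114 to 116 CPM and did not pass (0.04 ± 0.03, edgeR adjusted p = 0.614). UGT1A genes share exons, so reads cannot be assigned to 1 of them with certainty.

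Conjugation and efflux genes rose in 7 of 15 tested members and fell in 1, with a median of 0.14. UGT1A10 rose by 0.28 ± 0.03, and the pumps ABCG2 and ABCC3 by 0.23 ± 0.04 and 0.21 ± 0.04. ABCC2, which exports glutathione and glucuronide conjugates, was scarce, with 2.59, 1.93 and 1.75 CPM against 1.05, 1.32 and 0.870 CPM (0.96 ± 0.20, edgeR adjusted p = 0.00737). Its call was lost without high-dose library 1 or low-dose library 3 (up to 0.0701 in edgeR), and those of ABCG2 and ABCC3 were lost with the compared groups alone (edgeR adjusted p = 0.0685 and 0.132). ABCC2 was also lost without replicate 1 of every group (edgeR adjusted p = 0.124) and ABCC3 with 57 libraries (0.516). ABCG1, a cholesterol exporter outside this list, rose by 0.71 ± 0.09, from 4.74, 5.59 and 5.03 CPM to 8.81, 8.64 and 7.93 CPM.

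Of 26 tested genes of the integrated stress response, the ATF4 programme for amino acid supply, 9 rose and 0 fell. Beside SLC7A11 and CHAC1 these included asparagine synthetase ASNS, at 78.8, 74.3 and 76.5 CPM against 58.3, 59.6 and 53.3 CPM (0.42 ± 0.04, edgeR adjusted p = 1.48e-06). PSAT1, of serine synthesis, rose by 0.25 ± 0.03, and the amino acid transporter subunits SLC3A2 and SLC7A5 by 0.25 ± 0.04 and 0.23 ± 0.04. With all 57 libraries in the fit SLC3A2 and SLC7A5 did not pass (edgeR adjusted p = 0.157 and 0.669). Of 18 endoplasmic reticulum chaperones 0 were called in edgeR and 1 in DESeq2, with a median of 0.04, and 6 lay higher at an unadjusted p under 0.05. Leading rises outside the lists described here were GDF15, a secreted stress signal (0.43 ± 0.06), TRIM16L (0.65 ± 0.07) and the Wnt inhibitor NKD2 (0.69 ± 0.13), the last lost with the compared groups alone (edgeR adjusted p = 0.0618) and without replicate 1 of every group (0.0851). CXCL1, a neutrophil chemokine, rose by 1.07 ± 0.16, at 1.98, 2.45 and 2.26 CPM against 0.856, 1.12 and 1.15 CPM, and vehicle reached 2.05 CPM.

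**Figure D2:**
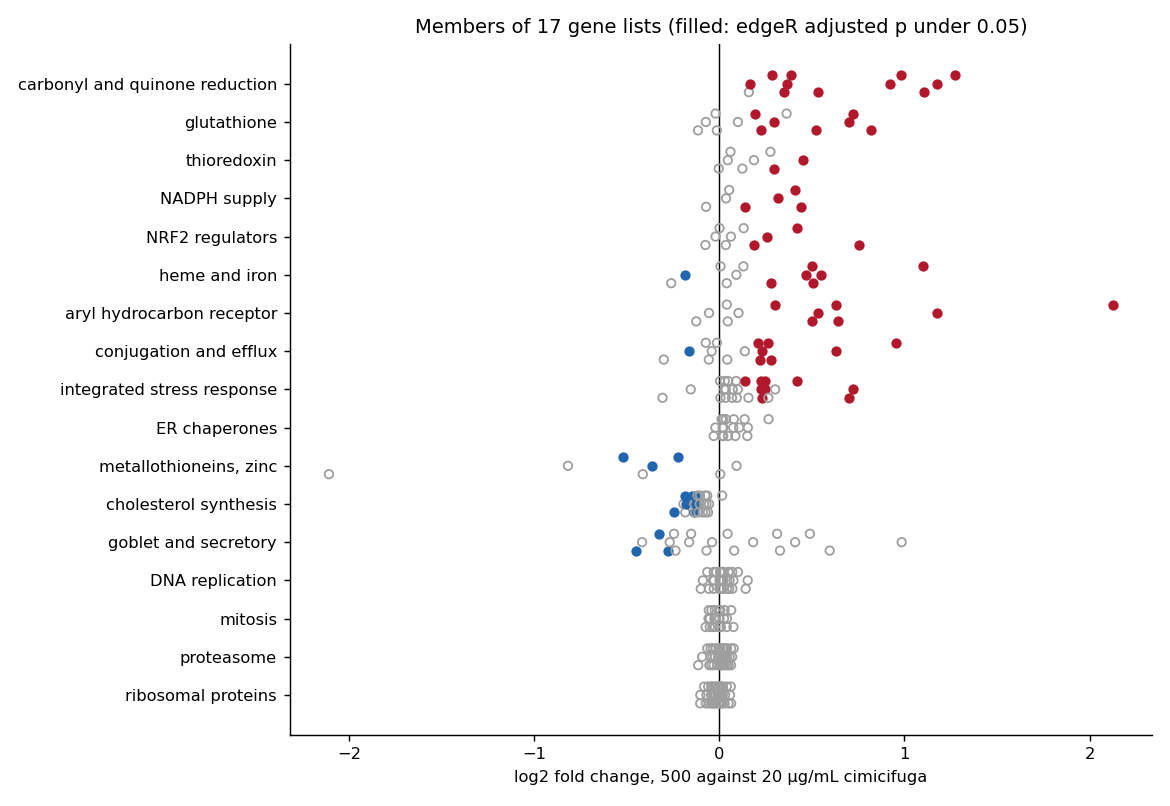
Log2 fold change between 500 and 20 µg/mL cimicifuga for each tested member of 17 gene lists (1 point a gene). Filled red and blue points passed edgeR's test as higher and lower, and open points did not pass. The 12 carbonyl and quinone genes all lie right of 0 with 11 filled, whereas the DNA replication, mitosis, proteasome and ribosomal protein lists hold 0 filled points.

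Fewer lists held falls. Metallothioneins, small proteins that bind zinc and copper, and zinc exporters had 3 of 8 tested members lower and 0 higher, with a median of -0.39. MT2A lay at 16.0, 16.8 and 18.7 CPM against 23.4, 27.9 and 22.6 CPM (-0.52 ± 0.09, edgeR adjusted p = 0.00167), MT1E changed by -0.36 ± 0.06 and the zinc exporter SLC30A1 by -0.23 ± 0.04. Vehicle lay at 25.6 to 35.1 CPM for MT2A. The metallothioneins are near copies, and the calls of MT1E, MT2A and SLC30A1 were lost with 57 libraries in the fit (edgeR adjusted p = 0.317, 0.146 and 0.186). Of 13 genes of alcohol and retinoid metabolism 2 rose and 3 fell. The alcohol dehydrogenases ADH1C (1.26, 1.01 and 1.42 CPM against 2.44, 2.99 and 2.89 CPM, -1.20 ± 0.19, edgeR adjusted p = 0.000733) and ADH6 (-0.52 ± 0.12) fell, and the retinaldehyde dehydrogenases ALDH1A3 and ALDH1A1 (0.28 ± 0.03) rose. ADH6 was lost without high-dose or low-dose library 2 (edgeR adjusted p of up to 0.116), and ADH1C and ADH6 without replicate 2 of every group (0.123 and 0.389).

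Cholesterol synthesis genes lay slightly lower, with 7 of 24 called and a median of -0.12, but 0 were called without the block. HMGCS1, which begins the pathway, had -0.25 ± 0.04 and INSIG1, the sterol sensor partner, -0.19 ± 0.03. Their edgeR adjusted p were 0.000834 and 0.00128 with the block, 0.145 and 0.181 without it, and 0.443 and 0.375 in the fit of 57 libraries. Citrus peel gave a like median of -0.11 for these genes between its own high and low dose, and 0 of the 24 differed between the extracts. Genes of DNA replication (32), mitosis (22), the proteasome (36) and the cytosolic ribosome (40) gave 0 calls in edgeR and 0 in DESeq2, with medians of 0.01, -0.01, 0.01 and -0.01. At an unadjusted p under 0.05 they held 3 higher and 1 lower, 0 and 0, 1 and 2, and 0 and 2 genes. Without replicate 3 of every group edgeR called 7 ribosomal protein genes and 2 proteasome genes lower, and the median differences of the ribosomal proteins in the 3 library pairs were -0.14, -0.06 and 0.18.

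Long genes were frequent among the falls, though not all falls were of long genes. Genes that fell had a median genomic span of 181.8 kb, against 23.9 kb over all tested genes and 24.9 kb for those that rose (spans from GENCODE release 29). Of the genes that fell 64.9% spanned over 100 kb, as did 7.69% of those that rose and 15.6% of all tested. Among the 434 tested genes of 300 kb or more, 119 (27.4%) fell and 0 rose in edgeR, with 212 lower and 3 higher at an unadjusted p under 0.05. DESeq2 called 110 lower and 0 higher. In all, 85% had a log2 fold change below 0. In the class of 100 to 300 kb 123 of 2091 fell (5.88%), and between 10 and 30 kb 38 of 4171 (0.911%). These classes were set after the data had been seen, so the counts are a description.

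**Figure D3:**
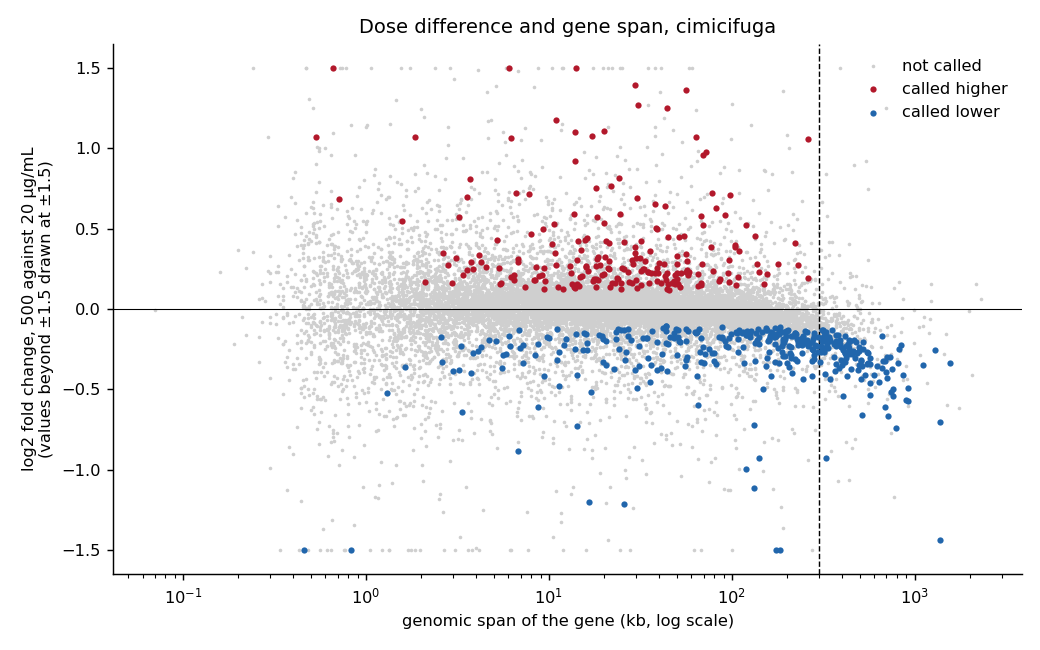
Genomic span of each tested gene (horizontal log axis, kb) against its log2 fold change between 500 and 20 µg/mL cimicifuga, with genes called higher in red, called lower in blue and the rest in grey. To the right of the dashed line at 300 kb lie 119 blue points and 0 red ones. The 68 genes beyond ±1.5 are drawn at the edge.

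For genes of 300 kb or more the median differences of high and low dose were -0.131, -0.153 and -0.194, in the 3 pairs of libraries with the same number, and the fitted median was -0.183. Libraries also differed in how their deviation from the group mean ran with exonic length across genes, with Spearman's rho of 0.37, 0.23 and -0.47 in high-dose libraries 1, 2 and 3 and of -0.26, 0.06 and 0.21 in the low-dose ones. The part of this in the shift was not tested. For genes of 30 to 100 kb the fitted median was -0.003. Exonic length (all annotated exons of a gene merged) also rose with span. Its median was 2090 bases under 10 kb and 9864 bases at 300 kb or more. Among genes whose exons sum to 6 kb or more but whose span is under 100 kb, 37 of 3372 fell and 57 rose, with a median of 0.005. With exons of 3 to 6 kb, 25.4% of the 63 genes of 300 kb or more fell and 1.11% of the 1259 genes under 10 kb. At 300 kb or more, 28.7% of the 359 genes with exons of 6 kb or more fell, at a median of -0.176. Of the 12 with exons under 3 kb 0 fell, at a median of -0.232. Between 100 and 300 kb, 0.962% of 104 genes with exons under 3 kb fell. There it was 4.88% of 492 with 3 to 6 kb and 6.56% of 1495 with 6 kb or more. The parts of span and exonic length were not tested. Where genes of 300 kb or more had a mean log2 CPM of at least 6, 46 of 73 fell, and where it was under 1, 2 of 119 did, with medians of -0.174 and -0.187. The number called among genes of 300 kb or more was 82 to 123 when 1 library was left out. It was 36 with 57 libraries, 40 with the compared groups alone, 42 without replicate 2 and 74 without replicate 3 of every group.

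**Figure D4:**
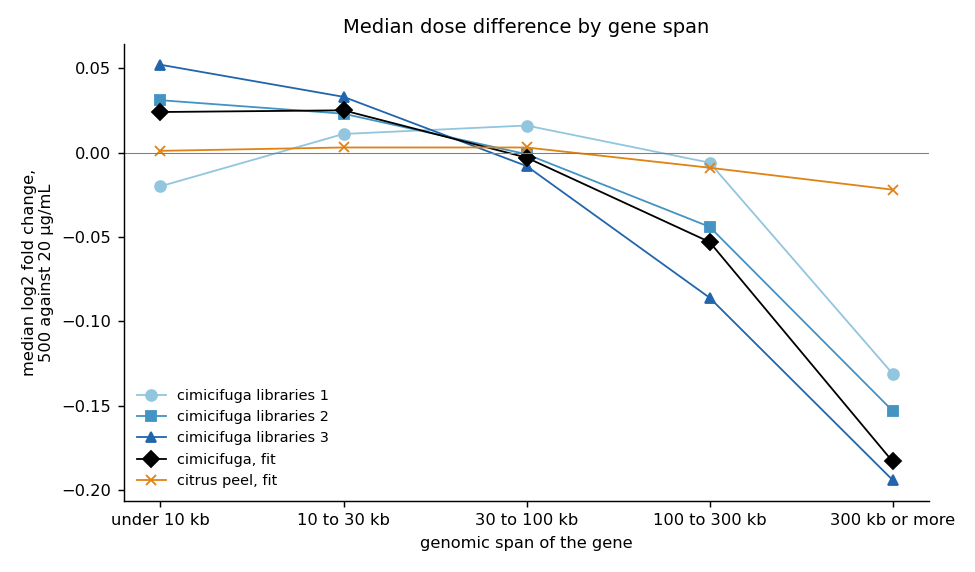
Median log2 fold change between 500 and 20 µg/mL by class of genomic span, for the 3 cimicifuga library pairs of the same number (blue), the cimicifuga fit (black) and the citrus peel fit (orange). All cimicifuga lines fall to between -0.131 and -0.194 in the class of 300 kb or more, where citrus peel lies at -0.022.

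Ranked among called genes with a mean log2 CPM of at least 1 and groups apart, 11 of the 15 largest falls spanned 300 kb or more, and 0 of the 15 largest rises did. DPH6, an enzyme of the diphthamide modification of elongation factor 2 (ENSG00000134146, chromosome 15, 35217345 to 35546193, minus strand, 328.8 kb), lay at 6.55, 6.19 and 7.68 CPM against 13.0, 12.9 and 12.8 CPM (-0.93 ± 0.08, edgeR adjusted p = 6e-07). It was the single member to fall of 8 diphthamide genes. NAALADL2, a peptidase-like membrane protein (ENSG00000177694, chromosome 3, 174438573 to 175810552, plus strand, 1372.0 kb), lay at 13.6, 14.2 and 13.0 CPM against 21.3, 21.8 and 22.8 CPM (-0.70 ± 0.06, edgeR adjusted p = 1.6e-07). ROR1, a receptor tyrosine kinase-like protein of 407.5 kb, went from 85.1, 97.3 and 102 CPM to 63.4, 65.5 and 67.9 CPM (-0.54 ± 0.04, edgeR adjusted p = 1.13e-07). In all 3 genes every vehicle library lay above the high dose, reaching 14.2, 21.4 and 97.1 CPM.

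The other long genes among the largest falls have unrelated roles. The synaptic scaffold SHANK2 changed by -0.74 ± 0.13, BCAS3 by -0.66 ± 0.09, the matrix protein THSD4 by -0.61 ± 0.05 and DPYD, which begins pyrimidine breakdown, by -0.57 ± 0.10. The phospholipase PLCB1 changed by -0.57 ± 0.09, the transcription coactivator subunit SUPT3H by -0.53 ± 0.12 and the adhesion protein LPP by -0.52 ± 0.06. SUPT3H was lost without library 2 or 3 of either dose (edgeR adjusted p of up to 0.163) and with the compared groups alone (0.248). SHANK2 and DPYD were lost with the compared groups alone (edgeR adjusted p = 0.0896 and 0.0764) and LPP with 57 libraries (0.0624). Short genes among the largest falls were RASL11A, a Ras-like protein (3.4 kb, -0.64 ± 0.05, edgeR adjusted p = 1.13e-07), the urea transporter SLC14A1 (65.5 kb, -0.60 ± 0.08), ADH1C and MT2A.

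The longest genes did not all move. Of the 20 tested genes of greatest span with a mean log2 CPM of at least 1 (835.9 to 2057.8 kb, taken by span after the data had been seen), 18 had a log2 fold change below 0, 9 fell and 0 rose. Beside NAALADL2, DPYD and PLCB1, DIAPH2, an actin-nucleating formin, changed by -0.49 ± 0.05, the oxidoreductase WWOX by -0.35 ± 0.07 and RABGAP1L by -0.23 ± 0.04. The phosphodiesterase PDE4D (-0.34 ± 0.07) and TBC1D5 (-0.26 ± 0.05) fell too, but were lost without low-dose library 3 (edgeR adjusted p = 0.0561 and 0.0553), PDE4D also without the block (0.0518). With 57 libraries PDE4D and TBC1D5 did not pass (edgeR adjusted p = 0.418 and 0.709). MACROD2, the longest at 2057.8 kb, lay at 2.53, 2.36 and 2.55 CPM against 3.03, 3.35 and 3.32 CPM (-0.41 ± 0.12) and did not pass (edgeR adjusted p = 0.0704), nor did IMMP2L (-0.36 ± 0.10), CCSER1 (-0.16 ± 0.12) and AUTS2 (-0.15 ± 0.08). Without the low-dose library 1 MACROD2 passed (0.0479), and without the filter on low counts IMMP2L did (0.0409). WWOX and RABGAP1L were lost with the compared groups alone (edgeR adjusted p = 0.12 and 0.134), and RABGAP1L also with 57 libraries (0.237).

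The medium dose, 100 µg/mL, lay close to the low dose. Between medium and low 0 of 16325 genes were called in edgeR (0%), 912 had an unadjusted p under 0.05, and DESeq2 called 5. Without the filter on low counts edgeR called 98, of which 51 were higher and 47 lower. The genes that rose from low to high had a median medium-to-low difference of 0.09, of 0.27 in all, and those that fell -0.06 of -0.23. The sign was shared by 195 of the 209 and 340 of the 373, but both differences use the low-dose libraries, so the shared sign is not separate evidence. From medium to high dose 111 genes rose and 170 fell (0.68% and 1.04% of genes tested, 1.72% in all), and 244 of the 582 were called there in the same direction. The count of 281 for medium to high dose was 175 and 186 without high-dose library 1 and 2, 157 without medium-dose library 2 and 201 without the block.

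The stated doses are 5-fold apart, so a response in proportion to log dose would place the medium midway. With a top dose under 500 µg/mL, which the design text allows for toxic extracts, it might not lie midway. Departure from that line was called for 12 genes (0.0735% of those tested), 11 of them (0.0674%) bent upward: ALDH3A1, AKR1B10, AKR1C1, AKR1C2, NQO1, GCLM, SLC7A11, TXNRD1, HMOX1, ASNS and the inositol transporter SLC5A3, the last named after its value was seen. AKR1C2 was the clearest, with a medium dose of 10.9, 10.2 and 9.93 CPM beside 9.02 to 9.90 at the low and 22.3 to 23.8 at the high dose (the step from medium to high exceeded that from low to medium by 1.02 log2 units, edgeR adjusted p = 0.00265). ROR1 alone (0.00613%) bent downward (-0.39, edgeR adjusted p = 0.0444). These calls depended on the fit. Without the filter on low counts 136 genes were called, 68 bent upward and 68 downward, and DESeq2 called 31, 22 upward and 9 downward. With 57 libraries 0 were called, and 1004 of the genes tested had an unadjusted p under 0.05 in the fit of 18. In the other fits 1 gene was called without the block, 2 with the cimicifuga libraries alone, 0 without medium-dose library 2, 1 and 4 without medium-dose library 1 and 3, 2 without high-dose library 1 or low-dose library 2, and 19 without low-dose library 1.

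Citrus peel, with the same library set code and at the same doses, tested whether the dose effect was shared. Between its own high and low dose 204 genes were called, 83 higher and 121 lower. The dose effect differed between the extracts for 129 genes (0.79% of those tested), 63 higher (0.386%) and 66 lower (0.404%) in cimicifuga. Among them were 49 of the genes that rose and 57 of those that fell in cimicifuga. The difference contains the same cimicifuga change that called these genes, so this overlap is not separate evidence. AKR1C2, which rose by 1.27 with cimicifuga, had 0.12 ± 0.07 with citrus peel, a difference of 1.15 (edgeR adjusted p = 1.98e-06). SQSTM1 rose with cimicifuga (0.42 ± 0.03) and fell with citrus peel (-0.17, edgeR adjusted p = 0.0157), a difference of 0.59 (edgeR adjusted p = 9.05e-07). ADH1C had -1.20 with cimicifuga and -0.87 with citrus peel, and their difference of -0.32 did not pass (edgeR adjusted p = 0.737). Of the genes of 300 kb or more 40 differed, all of them lower in cimicifuga (0 higher), and the median with citrus peel was -0.022. The 129 calls became 73 without the block, 62 without cimicifuga low-dose library 2, 76 without high-dose library 1, 85 without high-dose library 2, 74 and 81 without citrus peel high-dose library 1 and 3, and 69 and 84 without its low-dose library 2 and 3.

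**Figure D5:**
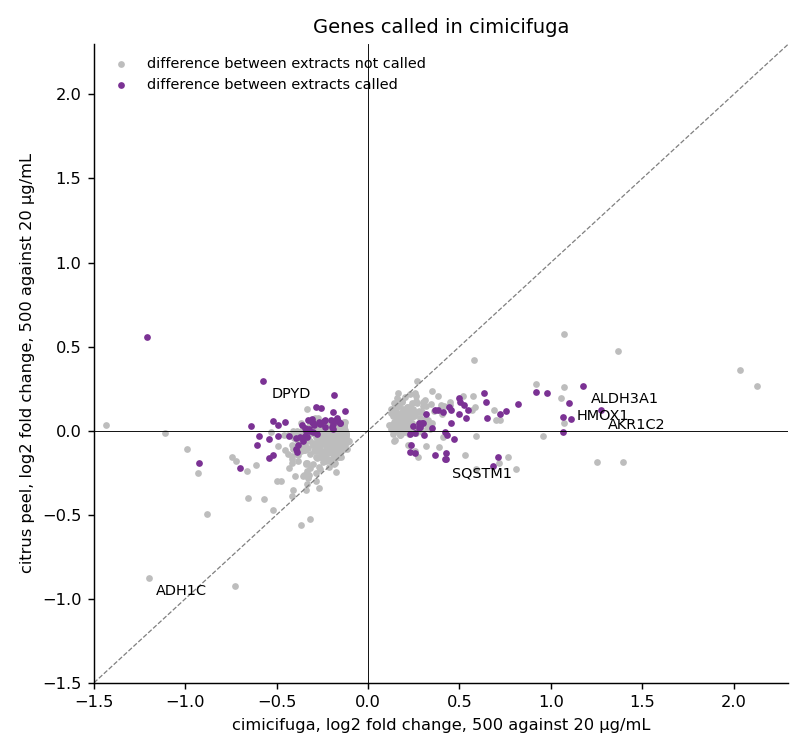
Log2 fold change between 500 and 20 µg/mL for genes called in cimicifuga, cimicifuga on the horizontal and citrus peel on the vertical axis, with the line of equal change dashed. Purple points differed between the extracts in edgeR and grey points did not pass. AKR1C2, HMOX1 and ALDH3A1 lie far right and near 0 vertically, whereas ADH1C lies near the line. 5 called genes outside the axes are not drawn.

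Other extracts of the series at the same step in dose, fitted in the 57 libraries, give context for the long genes. The median log2 fold change of genes of 300 kb or more was -0.186 for cimicifuga, -0.173 for the formula Banhasasim-tang, -0.15 for Aconiti Lateralis Radix Preparata, -0.122 for the formula Yijung-tang, -0.027 for Bupleuri Radix and -0.021 for citrus peel. For genes under 10 kb it was 0.02 for cimicifuga, 0.103 for Banhasasim-tang, 0.021 for Aconiti Lateralis Radix Preparata and 0.045 for Yijung-tang. The differences between these extracts were not tested.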

How the data were processed

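Gene expression was measured by RNA-seq of HT29 cells. Per the submitters' processing notes, the tools were RSEM 1.3.3, STAR 2.7.3a, FastQC 0.11.9 and Trim Galore 0.6.5, and the build GRCh38. The authors deposited estimated counts per gene for 60675 identifiers, and 210 columns of the table that match no sample here were not used. The estimated counts were rounded, filtered with filterByExpr and scaled by TMM, and 18 libraries (cimicifuga and citrus peel, 3 doses, 3 replicates) were fitted with edgeR 4.0.16 (R 4.3.3) as dose group plus replicate number, with Benjamini-Hochberg adjustment over 16325 genes and a threshold of 0.05. SE is the log2 fold change divided by the root of F. Deviations of same-numbered libraries correlated at -0.01, 0.14 and 0.05 between high and low dose, at 0.29, 0.14 and 0.56 between high and medium, and at 0.05, 0.19 and 0.28 between medium and low. Unlike numbers between high and medium gave 0.19 (high 2 with medium 1) and 0.21 (high 1 with medium 2). Where only 1 of the pair was library 3 they gave -0.26 to -0.45. Between high and medium the numbers thus set library 3 apart and do not pair libraries 1 and 2. Between high and low dose unlike numbers gave -0.21 to 0.15, so no clear pairing by number was seen there. The labels do not say what a number marks. The fit was tested on simulated data. Alternatives were no block, other choices of libraries, no filter, RLE scaling, DESeq2 1.42.0 and left-out libraries.

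The gene lists and members were chosen with earlier results of these data known. Named genes are the 15 largest rises and falls among called genes with a mean log2 CPM of at least 1 and groups apart, the 5 smallest adjusted p, and from each list its called members (at most 8) and up to 3 others. Some genes that this rule names are not reported here. Genes of the 20 longest spans and of the departure from log dose were named after their values were seen. Gene spans are from GENCODE release 29.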

Additional observations from a re-analysis of the deposited data

Results flagged for a closer look

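The dose effect of cimicifuga differed from that of citrus peel for 129 genes in edgeR, and for 48 of the genes named in the text (37 higher and 11 lower in cimicifuga, edgeR adjusted p from 9.05e-07 to 0.0492). Most named genes were chosen by their cimicifuga change, which is part of this difference, so these counts are not separate evidence. Each value here is the log2 fold change from low to high dose of cimicifuga minus that of citrus peel. The difference was at least 0.5 for AKR1C2 (1.15), CXCL1 (1.08), AKR1C1 (1.04), HMOX1 (0.94), ALDH3A1 (0.91), ABCG1 (0.87), AKR1C3 (0.76), AKR1B10 (0.69), GCLM (0.66), OSGIN1 (0.64), SLC7A11 (0.63), SQSTM1 (0.59), GDF15 (0.59), TRIM16L (0.58) and FTH1 (0.52). It lay from 0.3 to 0.5 for CYP1B1 (0.47), NQO1 (0.46), ASNS (0.43), FTL (0.42), UGT1A6 (0.41), ALDH1A3 (0.40), GCLC (0.37), FECH (0.34), TXNRD1 (0.33), UGDH (0.33), ME1 (0.30) and ABCB6 (0.30). It was smaller for MAFG (0.27), ALDH3A2 (0.26), PTGR1 (0.26), SLC48A1 (0.26), GPX2 (0.25), TIPARP (0.25), ABCG2 (0.25), EPHX1 (0.24), ALDH1A1 (0.23) and TKT (0.22). Cimicifuga lay lower for LPP (-0.37), ROR1 (-0.38), MT1E (-0.40), NAALADL2 (-0.48), THSD4 (-0.52), DIAPH2 (-0.53), SLC14A1 (-0.57), MT2A (-0.58), RASL11A (-0.67), DPH6 (-0.73) and DPYD (-0.87). The highest of these values was that of AKR1C2, which rose with cimicifuga, and the lowest that of DPYD, which fell with cimicifuga (-0.57) and lay at 0.30 with citrus peel. No explanation of the differences was tested.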

How the results depend on the processing

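The high against low count of 582 was 398 without the replicate block, 372 with the 9 cimicifuga libraries, 149 with 57 libraries and 134 with the compared groups alone. It ranged from 312 to 621 without 1 library (356 without high-dose library 2) and was 339, 142 and 501 without replicate 1, 2 and 3 of every group. Of these genes 235 were called in each of the 6 fits without 1 high-dose or low-dose library, and 77 in every alternative. Medium against low gave 0 genes, but 98 without the filter on low counts and 5 in DESeq2, and 0 to 2 with libraries left out. High against medium gave 281 genes, 201 without the replicate block, 62 with 57 libraries, 471 without the filter, 428 with the compared groups alone, 157 to 211 without 1 library (175 and 186 without high-dose library 1 and 2), and 92, 62 and 189 without replicate 1, 2 and 3 of every group. The departure from log dose gave 12 genes, 1 without the replicate block, 2 with 9 libraries, 0 with 57, 136 without the filter, 31 in DESeq2, 2 with the compared groups alone, 0 to 19 without 1 library and 0 to 11 without 1 replicate number. The difference between extracts gave 129 genes, 73 without the replicate block, 19 with 57 libraries, 306 without the filter, 60 with the compared groups alone, 62 to 135 without 1 library and 27, 16 and 160 without replicate 1, 2 and 3 of every group. It was 76 and 85 without cimicifuga high-dose library 1 and 2, 74 and 81 without citrus peel high-dose library 1 and 3, and 69 and 84 without its low-dose library 2 and 3. Genes of 300 kb or more called lower numbered 119, 99 without the replicate block, 36 with 57 libraries, 40 with the compared groups alone, 82 to 123 without 1 library and 92, 42 and 74 without replicate 1, 2 and 3 of every group. The causes were not tested.

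Of 89 named genes 77 were called, 47 of them in every alternative, and 0 of the 77 changed sign. GPX4, which was not called, lay at -0.02 and at 0.01, 0.06 and 0.07 without high-dose library 1, low-dose library 1 and replicate 1 of every group. Calls lost numbered 8 without 1 library, 4 without the replicate block (PGD, HMGCS1, INSIG1 and PDE4D), 24 with the compared groups alone and 19 with 57 libraries. Among genes of 300 kb or more, 2 of 119 with a mean log2 CPM under 1 fell, at a median of -0.187, and 46 of 73 at 6 or more, at -0.174.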

Other observations

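Over all tested genes 1.28% were called higher and 2.28% lower between high and low dose. Among gene lists not described above, chemokine and NF-kB genes had 2 of 16 tested members higher, CXCL1 among them. Their median log2 fold change was 0.21 between high and low dose, beside 0.04 between medium and low. Interferon-stimulated genes had 3 of 35 lower and a median of -0.10 with cimicifuga and -0.26 with citrus peel, and 0 of the 3 calls held in each of the 6 fits without 1 library. Genes of the secretory goblet programme had 3 of 20 lower, 1 without the replicate block. The 13 genes of the mitochondrial genome lay at a median of -0.09 between high and low dose and 0.16 between medium and low, and their median differences in the 3 library pairs were 0.07, -0.09 and -0.20.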
